A study of Mus musculus with 16 samples.

Results

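The genes described here encode splicing factors and heterogeneous nuclear ribonucleoproteins (hnRNPs). They were every gene whose single symbol in the platform annotation starts with Hnrnp, Hnrp, Srsf, Sfrs, Snrp, Sf3a, Sf3b or Prpf, together with Khsrp, which gave 52 of the 7114 named genes on the arrays. They fell into 5 families by symbol: 18 hnRNP genes with Khsrp among them, 8 SR genes (Srsf), 9 snRNP genes (Snrp), 8 SF3 genes (Sf3a and Sf3b) and 9 Prpf genes. The 52 genes were read by 80 probes, 36 of them by 1 probe each and 16 by several, which were averaged.

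The series compared total RNA of M833 cells and WT cells on two-colour expression arrays, each of which also carried a common reference RNA in the other dye. There were 8 M833 arrays and 8 WT arrays, and in each cell type 4 had the cell sample in Cy5 and 4 in Cy3. The series title places the cells among MEFs (mouse embryonic fibroblasts) with mutations in Met, the gene of a receptor tyrosine kinase. The labels give the cell types as M833 and WT and no more, so that the allele behind M833, the number of lines, cultures or animals, the passage and the make-up of the reference are unknown here.

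Introns are removed from transcripts by the spliceosome, whose core is built from small nuclear ribonucleoproteins (snRNPs), each a small RNA with a ring of Sm proteins and proteins of its own. The SF3A and SF3B complexes hold the U2 snRNP at the branch site, and several PRPF proteins assemble the U4/U6.U5 tri-snRNP that carries the catalytic centre. SR proteins mostly favour the use of the exons they bind, whereas hnRNP proteins coat nascent transcripts, often silence exons, and in some cases bind AU-rich elements that govern the life of an mRNA. Most cells of the body, fibroblasts included, express these genes.

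Every value below is a log2 ratio of cell sample to common reference, a direction that is likely but that no label states, or a difference of such ratios, M833 minus WT. A difference was called where limma, fitted over all 12761 features with a term for dye, gave a Benjamini-Hochberg adjusted p under 0.05, and values after ± are standard errors of the difference unless an SD is named. Whether the arrays stand for separate cultures is not in the labels, and the p-values then measure no more than the array-to-array spread, part or all of which may be technical. The correlation of array pairs over all probes was 0.591 to 0.973, and 0.818 or higher when WT replicate 2 was set aside. That array held all 49 values beyond 8 on the log2 scale, and 1 of the 52 genes, Prpf31, was touched by them. Of the 12 fibroblast markers listed, 8 were measured, 5 of which were called lower in M833 and 0 higher, and the mean over the 8 lay between -0.93 and -0.49 on M833 arrays and between -0.60 and -0.21 on WT arrays. All 7 macrophage markers that were measured were called lower in M833, with a median difference of -0.86. Among all features 15.9% were called lower and 10% higher.

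Promoter sequences are given for 4 of the genes with large differences between the cell types, 3 of the hnRNP family and 1 SR gene, so that their starts can be compared. Each runs 5′ to 3′ on the gene's own strand from 250 bases before to 50 bases after the transcript start, from RefSeq on the build GRCm38.p6, and 46 of the 52 genes had such a window. Capitals mark 3 motifs wherever they occur on either strand: the E box CACGTG, the GC box GGGCGG or its reverse complement CCGCCC, and the CCAAT box CCAAT or its reverse complement ATTGG. The Khsrp window lies at chr17:57031458-57031757, Hnrnpd at chr5:99978889-99979188, Hnrnpdl at chr5:100039173-100039472 and Srsf2 at chr11:116853045-116853344, all on the minus strand.
Khsrp: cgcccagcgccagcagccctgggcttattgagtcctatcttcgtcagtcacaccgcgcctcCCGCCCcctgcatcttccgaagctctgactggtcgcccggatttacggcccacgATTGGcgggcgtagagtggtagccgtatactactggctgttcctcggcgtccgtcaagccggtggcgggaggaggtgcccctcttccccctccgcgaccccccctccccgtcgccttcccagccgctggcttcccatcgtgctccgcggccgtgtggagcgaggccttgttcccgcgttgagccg
Hnrnpd: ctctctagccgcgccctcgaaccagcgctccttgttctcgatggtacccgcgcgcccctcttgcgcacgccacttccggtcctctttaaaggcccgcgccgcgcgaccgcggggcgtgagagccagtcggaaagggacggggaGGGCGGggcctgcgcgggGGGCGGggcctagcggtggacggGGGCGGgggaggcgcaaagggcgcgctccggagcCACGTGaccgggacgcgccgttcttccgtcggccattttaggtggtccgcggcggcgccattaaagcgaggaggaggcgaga
Hnrnpdl: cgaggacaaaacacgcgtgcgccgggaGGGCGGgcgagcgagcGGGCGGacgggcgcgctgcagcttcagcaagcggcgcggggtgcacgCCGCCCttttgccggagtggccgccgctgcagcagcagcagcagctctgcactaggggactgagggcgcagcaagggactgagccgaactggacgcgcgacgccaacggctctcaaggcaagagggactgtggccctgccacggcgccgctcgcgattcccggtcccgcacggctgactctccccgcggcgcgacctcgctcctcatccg
Srsf2: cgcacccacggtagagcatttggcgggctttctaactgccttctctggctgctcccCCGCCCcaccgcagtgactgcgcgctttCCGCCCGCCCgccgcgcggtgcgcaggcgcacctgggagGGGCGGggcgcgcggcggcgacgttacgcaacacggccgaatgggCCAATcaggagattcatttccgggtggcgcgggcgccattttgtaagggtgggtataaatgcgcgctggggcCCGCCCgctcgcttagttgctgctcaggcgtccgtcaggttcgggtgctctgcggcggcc
All 4 windows held a GC box, 1 in Khsrp, 3 each in Hnrnpd and Hnrnpdl, and 5 in Srsf2, where a pair overlaps by some bases. An E box was found in Hnrnpd only, and a CCAAT box in Khsrp and in Srsf2. Over all windows of the splicing genes, 61 because some genes have several starts, 63.93% held a GC box, against 35.66% of all 32851 windows of the table. A CCAAT box was found in 50.82% of these windows and in 37.41% of all windows, an E box in 9.84% and 7.15%, and the TATA box TATAAA or TTTATA in 8.20% and 13.62%. The median share of G and C was 60% in the windows of the splicing genes and 52.7% in all windows. A match is a string of letters, not a bound site. Hnrnpd and Hnrnpdl are neighbours on chromosome 5, with 1 protein-coding gene between them in that annotation.

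The splicing genes as a group were more often higher in M833 than in WT. Of 52 genes, 21 were called higher in M833 (40.4%), 2 were called lower (3.85%) and 29 did not pass the test. Over all features of the arrays 10% were called higher and 15.9% lower, and over the named genes alone 13.1% and 18.8%. The differences were small: the median over the 52 genes was 0.08, against -0.03 over all features, and the median size among the called genes was 0.197, the smallest 0.10. None of the 23 called genes differed 2-fold. Of the 52 differences 39 were positive and 13 negative. In 12 genes (23.1%) all 4 M833 arrays lay above all 4 WT arrays in both dye orientations, against 4.01% of all features, and 0 genes lay apart in the other direction, against 6.49%. In 5 genes (9.62%) the 8 M833 arrays did not overlap the 8 WT arrays at all, against 4.59% of all features in either direction and 1.82% upwards, and all of these were higher in M833: Khsrp, Hnrnpd, Hnrnpa2b1, Srsf2 and Snrpb. With each array centred on its median, 25 splicing genes were called higher and 1 lower, and the split over all features was 1558 higher and 1635 lower in place of 1276 and 2025.

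**Figure D1:**
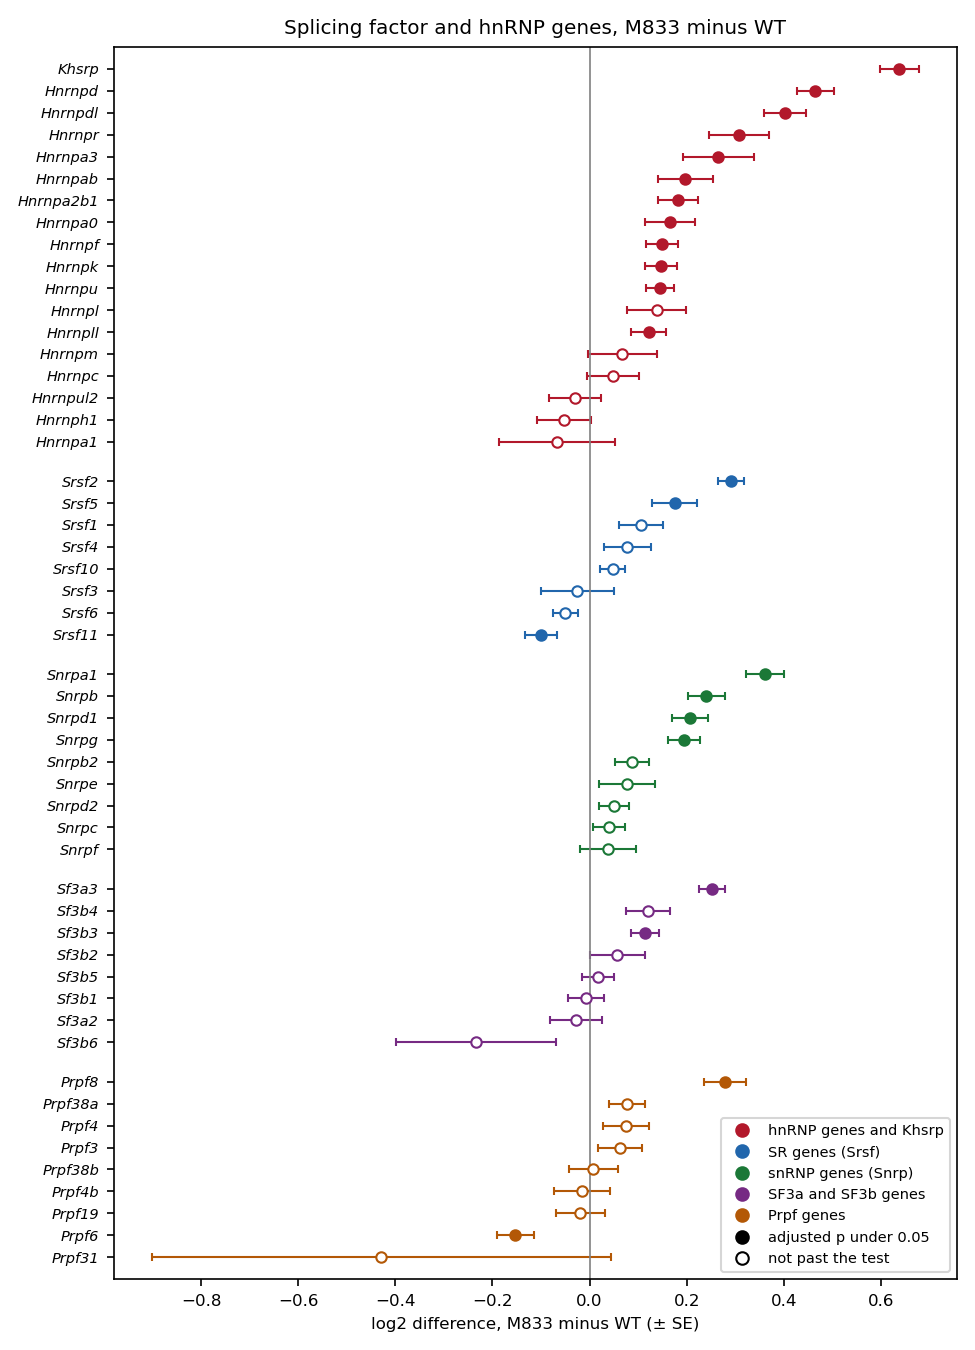
Log2 difference of M833 minus WT (horizontal axis, dot with standard error, 8 arrays per cell type) for the 52 genes, grouped by family and sorted within it, filled where it passed the test. Of the hnRNP genes 12 are filled and to the right of 0, Khsrp furthest at 0.64, and the wide bar of Prpf31 comes from WT replicate 2.

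The median over the 52 genes lay between -0.01 and 0.05 on the 8 M833 arrays and between -0.20 and -0.07 on the 8 WT arrays, so the cell types did not overlap. The same medians over all features lay between -0.02 and 0.04 on M833 arrays and between -0.02 and 0.08 on WT arrays. RNA of whole cultures cannot tell fewer cells of a type apart from less RNA per cell. Most markers of dividing cells were also higher in M833. Of the 28 cell cycle genes measured 23 were called higher (82.1%, against 10% of all features) and 0 lower. Their median difference was 0.57. The other 5 did not pass: Ccnb2, Kif11 and Ccna2, at 0.41, 0.17 and 0.16, and Mki67 and Mcm4, at -0.11 and -0.01. The mean over those 28 genes lay between 0.05 and 0.23 on M833 arrays and between -0.60 and -0.12 on WT arrays. The mean over the 7 macrophage markers lay between -1.60 and -1.29 on M833 arrays and between -0.46 and -0.28 on WT arrays. The part of dividing cells or of macrophages in the differences of the splicing genes was not tested.

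The hnRNP family held most of the called genes, with 12 of 18 called higher in M833 (66.7%), 0 lower and 6 not past the test. Of all features 10% were called higher and 15.9% lower. The family had a median difference of 0.15. The median over the family lay between -0.21 and -0.06 on M833 arrays and between -0.51 and -0.27 on WT arrays. Khsrp, a KH-domain protein that binds AU-rich elements and promotes the decay of their mRNAs besides its part in splicing, had the largest difference of all 52 genes. Its ratio was 0.11 at the lowest, 0.25 at the median and 0.56 at the highest in M833, against -0.55, -0.39 and -0.05 in WT. The 8 M833 arrays lay above the reference and the 8 WT arrays below it, with no overlap. The difference was 0.64 ± 0.04, or 1.56-fold higher (adjusted p = 7.33e-08), and it was 0.64 in the Cy5 arrays and 0.63 in the Cy3 arrays.

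Hnrnpd, known as AUF1, is another protein that binds AU-rich elements of mRNAs. It ranged from -0.85 through a median of -0.67 to -0.53 in M833, against -1.37, -1.11 and -0.99 in WT. All arrays were below the reference, and the WT arrays further below it, with no overlap between the cell types. The difference was 0.47 ± 0.04, or 1.38-fold higher (adjusted p = 7.61e-07). Hnrnpdl, a close relative of it and its neighbour on the chromosome, had ratios of -0.34, -0.12 and 0.01 in M833 (lowest, median and highest) and of -0.82, -0.53 and -0.30 in WT. Of its M833 arrays 7 of 8 lay above every WT array. It differed by 0.40 ± 0.04, or 1.32-fold higher (adjusted p = 8.03e-06), and its 2 probes gave 0.45 and 0.36.

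Hnrnpr, a relative of Syncrip that binds pre-mRNA and mRNA, had ratios of -0.11, 0.05 and 0.14 in M833 and of -0.54, -0.29 and -0.07 in WT. Here too 7 of 8 M833 arrays lay above every WT array, and no WT array lay above the reference. The difference was 0.31 ± 0.06 (adjusted p = 0.00167). The other 8 called hnRNP genes differed by 0.12 to 0.27. Among them Hnrnpa2b1, which packages transcripts with Hnrnpa1 in the hnRNP core, was the one without overlap, if narrowly, with its lowest M833 array at -0.259 and its highest WT array at -0.263. It differed by 0.18 ± 0.04 (adjusted p = 0.00431), with 1 of its 2 probes called, at 0.25, and the other at 0.11. Hnrnpa3, of the same A/B type, differed by 0.27 ± 0.07 (adjusted p = 0.0142), Hnrnpab by 0.20 ± 0.06 (adjusted p = 0.0182) and Hnrnpa0 by 0.17 ± 0.05 (adjusted p = 0.0265). Hnrnpf, which binds runs of G, and Hnrnpk, a KH-domain protein that binds runs of C, each differed by 0.15 ± 0.03 (adjusted p = 0.00286 and 0.00371). Hnrnpu, a large nuclear protein that also binds DNA of the nuclear scaffold, differed by 0.15 ± 0.03 (adjusted p = 0.00158). Of its 3 probes 2 were called, and of the 5 probes of Hnrnpa3 4 were. Hnrnpll, best known for the splicing of Ptprc in lymphocytes, differed by 0.12 ± 0.04 (adjusted p = 0.0244).

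Of the 6 hnRNP genes that did not pass, Hnrnpl, which binds CA repeats, was at 0.18 ± 0.15 in M833 and 0.04 ± 0.20 in WT (SD, n = 8 arrays each), a difference of 0.14 ± 0.06 (adjusted p = 0.113). Hnrnpm differed by 0.07 ± 0.07, Hnrnpul2 by -0.03 ± 0.05 and Hnrnph1 by -0.05 ± 0.06. Hnrnph1, which binds runs of G as Hnrnpf does, had a mean ratio of -4.33 in M833 and of -4.28 in WT, far below the reference. After scaling the log ratios between arrays its difference was -0.84 (adjusted p = 0.0065). Hnrnph1 was the only one of the 29 uncalled genes that passed as a decrease under an alternative with averaged probes. Scaling multiplies all ratios of an array by a factor, so ratios this far from 0 shift most. Unscaled, the difference was -0.11 in the Cy5 arrays and 0.01 in the Cy3 arrays. Hnrnpa1 and Hnrnpc, founding members of the hnRNP core, rested on probes that disagreed. For Hnrnpa1 the mean over 3 probes differed by -0.07 ± 0.12, while 1 probe was called higher at 0.49 ± 0.07 and the others gave -0.26 ± 0.20 and -0.43 ± 0.16. For Hnrnpc, which binds runs of U, 3 of 4 probes were called higher at 0.16 to 0.26, and the last, at -0.41 ± 0.19, brought the mean to 0.05 ± 0.05.

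**Figure D2:**
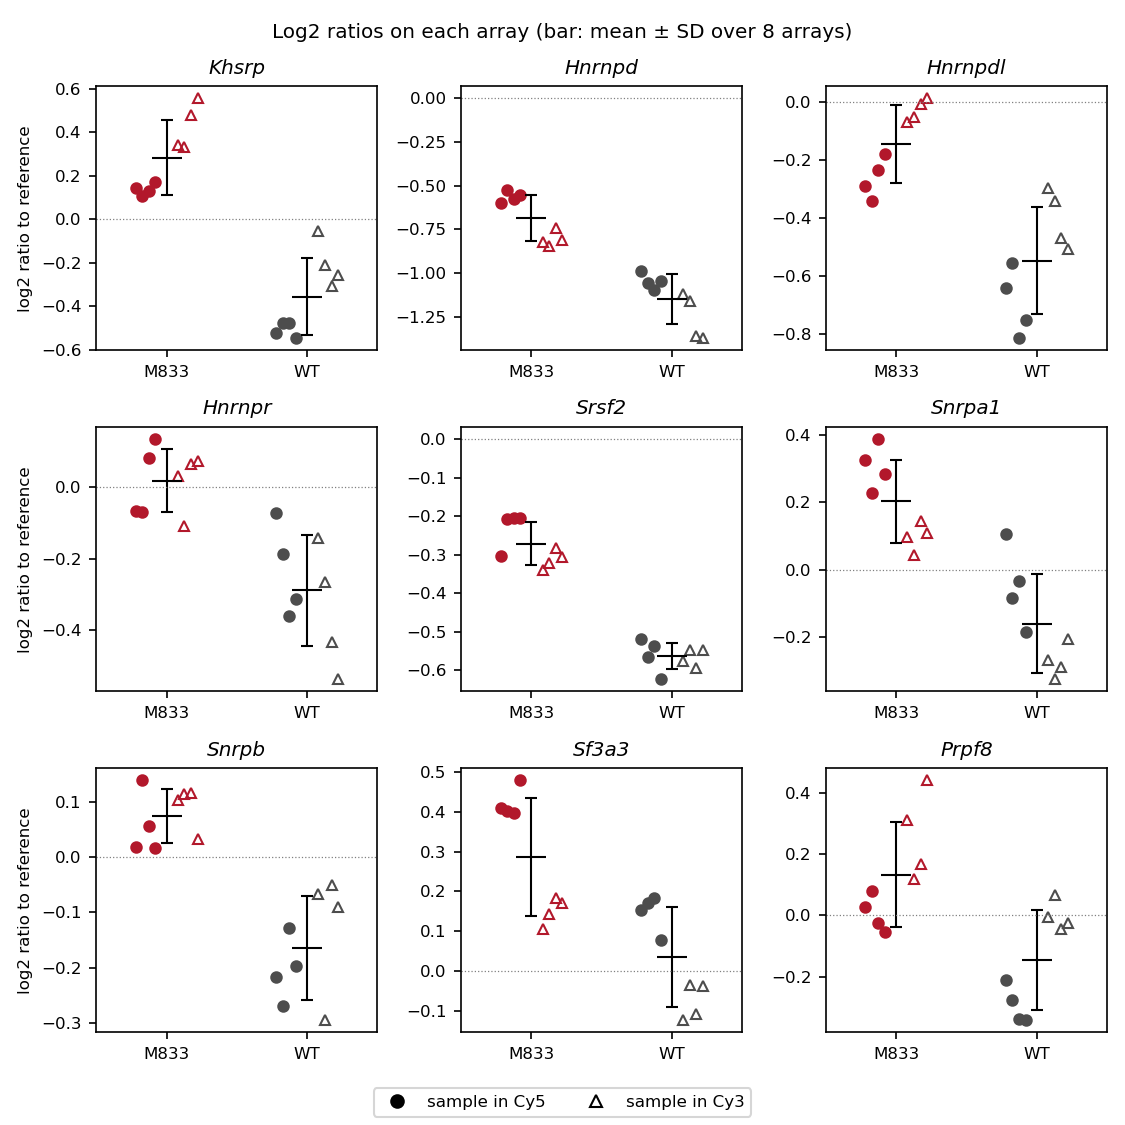
Log2 ratio to the common reference (vertical axis, dotted line at 0) on each array for 9 called genes, M833 in red on the left and WT in grey on the right, with dots for the sample in Cy5, triangles for Cy3 and bars for the mean ± SD over 8 arrays. The cell types do not overlap for Khsrp, Hnrnpd, Srsf2 and Snrpb, and within each dye they separate for all 9 genes.

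The SR family was mixed, with 2 of 8 genes called higher in M833 (25%), 1 lower (12.5%) and 5 not past the test. Among all features these shares were 10% and 15.9%. The family had a median difference of 0.06. Srsf2, also called SC35, which binds exonic enhancers and marks nuclear speckles, had the largest difference of the family. Its ratio was -0.34, -0.29 and -0.20 in M833 (lowest, median and highest), against -0.62, -0.56 and -0.52 in WT. All arrays lay below the reference and the cell types did not overlap. The difference was 0.29 ± 0.03, or 1.22-fold higher (adjusted p = 2.05e-06), and its 2 probes gave 0.32 and 0.26.

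Srsf5, an SR protein with a pair of RNA-binding domains, had ratios of -0.49, -0.37 and -0.11 in M833 and -0.79, -0.50 and -0.34 in WT. The cell types overlapped, with 3 of 8 M833 arrays above every WT array. The difference was 0.18 ± 0.05 (adjusted p = 0.0105). Srsf11, a divergent SR protein also known as p54, was 1 of the 2 genes called lower. It had ratios of 0.04, 0.20 and 0.30 in M833 and 0.13, 0.30 and 0.44 in WT, above the reference on all arrays and overlapping. The difference was -0.10 ± 0.03 (adjusted p = 0.035), which rested on 1 of 3 probes at -0.20 while the others gave -0.03 and -0.08. Srsf11 passed no longer when M833 replicate 4, 5, 7 or 8 or WT replicate 2, 4, 5 or 6 was left out.

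Of the SR genes that did not pass, Srsf1, the founding SR protein SF2/ASF, differed by 0.11 ± 0.05 (adjusted p = 0.103), Srsf4 by 0.08 ± 0.05 and Srsf10 by 0.05 ± 0.02. Srsf3, the smallest SR protein, differed by -0.03 ± 0.07 with probes from -0.29 to 0.15, and Srsf6 by -0.05 ± 0.03. The 95% confidence interval of the difference ran from -0.10 to 0.01 for Srsf6 and from -0.18 to 0.13 for Srsf3.

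All 9 snRNP genes had a positive difference, with a median of 0.09. Among them 4 were called higher in M833 (44.4%, against 10% of all features), 0 lower and 5 did not pass the test. Snrpa1, which encodes protein A′ of the U2 snRNP, had ratios of 0.05, 0.19 and 0.39 in M833 and -0.32, -0.19 and 0.11 in WT. Every M833 array lay above the reference and 7 of 8 WT arrays below it, and 6 of 8 M833 arrays lay above every WT array. The difference was 0.36 ± 0.04, or 1.28-fold higher (adjusted p = 7.89e-06).

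The other called snRNP genes encode Sm proteins of the ring that the U1, U2, U4 and U5 snRNPs share. Snrpb, encoding SmB, had ratios of 0.02, 0.08 and 0.14 in M833 and -0.30, -0.16 and -0.05 in WT, above the reference on every M833 array and below it on every WT array. The difference was 0.24 ± 0.04 (adjusted p = 0.000261). Snrpd1, encoding SmD1, had ratios of -0.25, -0.13 and 0.10 in M833 and -0.46, -0.34 and -0.08 in WT. These overlapped, and the difference was 0.21 ± 0.04 (adjusted p = 0.000714).

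Snrpg, encoding SmG, had ratios of -0.39, -0.04 and 0.37 in M833 and -0.62, -0.25 and 0.18 in WT. Over all arrays the cell types overlapped widely, but within either dye they did not. With the sample in Cy5 the lowest M833 array was at 0.23 and the highest WT array at 0.18, and with it in Cy3 the lowest M833 array was at -0.39 and the highest WT array at -0.50. The difference with the dye term was 0.19 ± 0.03 (adjusted p = 0.000463), and it was 0.19 in either dye. Among the remaining snRNP genes Snrpb2, encoding protein B″ of the U2 snRNP and the partner of protein A′, differed by 0.09 ± 0.03 (adjusted p = 0.0722). The Sm genes Snrpe, Snrpd2 and Snrpf differed by 0.08 ± 0.06, 0.05 ± 0.03 and 0.04 ± 0.06, and Snrpc, of the U1 snRNP, by 0.04 ± 0.03.

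In the SF3 family 2 of 8 genes were called higher in M833 (25%, against 10% of all features), 0 lower and 6 did not pass. The median difference was 0.04. Sf3a3, which encodes a subunit of SF3A, had ratios of 0.11, 0.29 and 0.48 in M833 and -0.12, 0.02 and 0.18 in WT. The ranges overlapped over all arrays, but within either dye all M833 arrays lay above all WT arrays. The difference was 0.25 ± 0.03 (adjusted p = 7.89e-06). Sf3b3, a large scaffold subunit of SF3B, had ratios of -0.15, 0.02 and 0.25 in M833 and -0.26, -0.11 and 0.13 in WT, which overlapped. It differed by 0.11 ± 0.03 (adjusted p = 0.00768), with 1 of its 2 probes called, at 0.17, and the other at 0.06.

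The other SF3B subunits did not pass the test. Sf3b1, the subunit that clamps the branch site, differed by -0.01 ± 0.04, with a 95% confidence interval from -0.09 to 0.07. Sf3b4 differed by 0.12 ± 0.05 (adjusted p = 0.066), Sf3b2 by 0.06 ± 0.06, Sf3b5 by 0.02 ± 0.03 and Sf3a2, of SF3A, by -0.03 ± 0.05. Sf3b6, which contacts the branch point adenosine, differed by -0.23 ± 0.16, and by -0.07 without WT replicate 1.

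The Prpf family stood nearest to 0, with a median of 0.01. Of its 9 genes 1 was called higher in M833 (11.1%), 1 lower (11.1%) and 7 did not pass the test. These shares were near those of all features, 10% higher and 15.9% lower. Prpf8, the scaffold of the catalytic centre in the U5 snRNP, had ratios of -0.06, 0.10 and 0.44 in M833 and -0.34, -0.13 and 0.07 in WT. Of its M833 arrays 5 of 8 lay above every WT array. The difference was 0.28 ± 0.04, or 1.21-fold higher (adjusted p = 0.00023).

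Prpf6, which bridges U5 and U4/U6 in the tri-snRNP, went the other way. It had ratios of 0.12, 0.25 and 0.40 in M833 and 0.34, 0.39 and 0.55 in WT, above the reference throughout, with 7 of 8 M833 arrays below every WT array. The difference was -0.15 ± 0.04, or 0.899-fold (adjusted p = 0.00695). In a limma fit with sets of 4 arrays per cell type, described below, as a random block, Prpf6 no longer passed (adjusted p = 0.1) and Prpf8 did (adjusted p = 0.016). The U4/U6 proteins Prpf3 and Prpf4 differed by 0.06 ± 0.05 and 0.08 ± 0.05 without passing.

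Prpf38a, which acts when the spliceosome is activated, and its relative Prpf38b differed by 0.08 ± 0.04 and 0.01 ± 0.05, the second with 1 probe called lower at -0.12 and the other at 0.13. Prpf19, the ubiquitin ligase of the complex named after it, differed by -0.02 ± 0.05, and the kinase Prpf4b by -0.02 ± 0.06. Prpf31, a U4/U6 protein, differed by -0.43 ± 0.47, and 1 of its 2 probes was extreme on WT replicate 2. Without WT replicate 2 the difference of Prpf31 was 0.08 (adjusted p = 0.106), and its other probe was called higher at 0.10 ± 0.03.

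**Figure D3:**
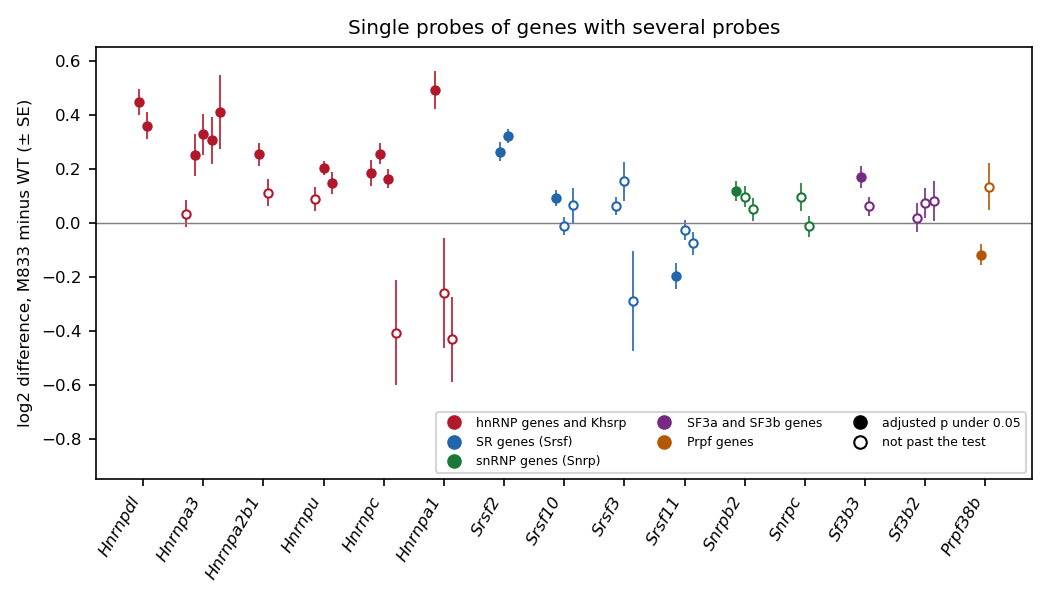
Log2 difference of M833 minus WT with its standard error (vertical axis) for each probe of 15 of the 16 genes with several probes. Filled dots passed the test when each probe was a feature by itself, Prpf31 is left out for its scale, and for Hnrnpa1, Hnrnpc and Srsf3 the probes lie on both sides of 0.

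Probes of a gene had the same sign in 9 of the 16 genes with several probes and both signs in 7, namely Hnrnpa1, Hnrnpc, Srsf3, Srsf10, Snrpc, Prpf31 and Prpf38b. In the 7 genes with both signs 0 were called after averaging. With each probe as a feature by itself, 26 of the 52 genes had a probe called higher in M833 and 3 had a probe called lower. Over all 15247 probes 1655 were called higher and 2408 lower. A gene counted if any of its probes passed, so genes with several probes had more chances than a single probe. Probe sequences were not used here, so which transcripts or related genes each probe reads is unknown, and signals of near-identical family members and pseudogenes, as Hnrnpa1 has, could be mixed.

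The genes were also set against the common reference. Of the 18 hnRNP genes 8 lay below the reference on all 8 M833 arrays and 13 on all 8 WT arrays, while 2 lay above it on all M833 arrays and 0 on all WT arrays. Of the 9 snRNP genes 5 lay above the reference on all M833 arrays and 0 below it, against 1 above and 2 below on all WT arrays. Over the 52 genes, 14 lay above the reference on all M833 arrays and 13 below, against 5 above and 20 below on all WT arrays. Over all features the shares were 29% above and 30.1% below for M833, and 27.9% above and 26.1% below for WT. The median level of the snRNP genes was 0.10 in M833 and 0.01 in WT, that of the SF3 genes 0.07 and 0.02, that of the Prpf genes 0.09 and 0.03, and that of the SR genes -0.15 and -0.21.

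The highest mean ratios over all 16 arrays were those of Prpf31, at 0.61, which rests on WT replicate 2, and of Prpf6, Snrpb2 and Sf3b4, at 0.33, 0.26 and 0.25. The lowest were those of Hnrnph1, at -4.31, and of Hnrnpd, Hnrnpul2 and Hnrnpa3, at -0.92, -0.76 and -0.65. A ratio says how a cell sample stood to the reference for that gene and not how abundant the transcript was. The ratio also depended on the dye. The median of Cy5 minus Cy3 was 0.21 over the snRNP genes, 0.02 over the Prpf genes, 0.01 over the SR genes, -0.10 over the hnRNP genes and -0.12 over the SF3 genes, and it reached 0.65 for Snrpg. The fit takes up this shift, and the interaction of dye and cell type was called for 0 of the 52 genes and 0% of all features.

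The WT arrays fell into sets, replicates 1, 2, 5 and 6 and replicates 3, 4, 7 and 8, that deviated together from the fit of cell type and dye, as was known from earlier results of these data. No label names these sets, and the M833 arrays were split by the same replicate numbers. Over all features the deviations of WT arrays had a mean rank correlation of 0.44 within a set and -0.50 between sets, and those of M833 arrays -0.01 and -0.20. Such deviations cancel out within a cell type, so some negative correlation is built in. The median over the 52 genes lay between -0.12 and -0.07 on WT replicates 1, 2, 5 and 6 and between -0.20 and -0.13 on WT replicates 3, 4, 7 and 8. The cell cycle genes were split the same way, with means between -0.19 and -0.12 on WT replicates 1, 2, 5 and 6 and between -0.60 and -0.55 on the other WT arrays.

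Against WT replicates 3, 4, 7 and 8 alone, 28 splicing genes were called higher in M833 and 0 lower, with 13.8% of all features higher and 20.1% lower. Against WT replicates 1, 2, 5 and 6 alone, 19 were higher and 2 lower, with 14.5% and 21.8% of all features. These comparisons share the 8 M833 arrays. When the sets entered the fit as a random block, 14 genes were higher and 0 lower, against 4.4% and 7.08% of all features. Hnrnpab, Hnrnpa0, Hnrnpf, Hnrnpk, Hnrnpll, Srsf5, Sf3b3, Prpf6 and Srsf11 no longer passed there, with adjusted p-values from 0.057 to 0.228. When each set was reduced to its mean, 2 against 2, 0 of 52 genes and 0 features were called. There 10 of the 52 genes had an unadjusted limma p under 0.05, as did 1675 of all 12761 features.

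Some genes depended on the set far more than others. Hnrnpa3 differed by 0.45 from WT replicates 3, 4, 7 and 8 and by 0.08 from WT replicates 1, 2, 5 and 6 (adjusted p = 0.136 for the second). Hnrnpa0 behaved alike, at 0.28 and 0.06 (adjusted p = 0.229), and Hnrnpr was at 0.43 and 0.19, called in both. Hnrnpab ran the other way, at 0.07 (adjusted p = 0.188) and 0.32. Of the uncalled genes, Hnrnpl was at 0.28 and 0.00 and Hnrnpm at 0.24 and -0.10. Some called genes with large differences varied less: Khsrp was at 0.68 and 0.60, Srsf2 at 0.30 and 0.28 and Snrpa1 at 0.38 and 0.34. Sf3a3 was at 0.26 and 0.25 and Prpf8 at 0.32 and 0.24. Hnrnpd was at 0.53 and 0.40, and Hnrnpdl at 0.49 and 0.31. Called genes with small differences could also vary little, such as Hnrnpf at 0.153 and 0.145 and Hnrnpu at 0.16 and 0.13. Prpf6 was at -0.12 (adjusted p = 0.0534) and -0.19, and Srsf11 at -0.06 (adjusted p = 0.254) and -0.14.

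**Figure D4:**
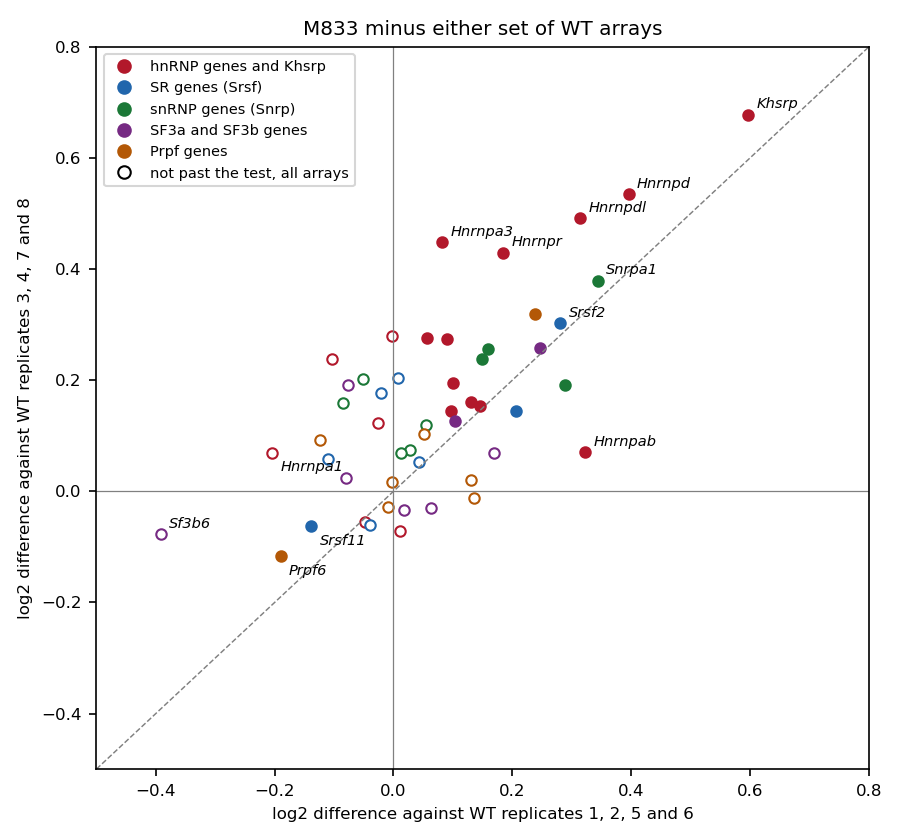
Log2 difference of M833 from WT replicates 1, 2, 5 and 6 (horizontal axis) and from WT replicates 3, 4, 7 and 8 (vertical axis) for 51 genes, with Prpf31 left out for its scale. Both axes use the same 8 M833 arrays, the dashed line marks equal values, and Hnrnpa3 (0.08 and 0.45) and Hnrnpab (0.32 and 0.07) lie furthest from it among the called genes.

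Khsrp, Hnrnpd, Hnrnpdl, Srsf2, Snrpa1 and Sf3a3 were the 6 of 23 called genes that lost their call in 1 of 32 alternative settings only, the set means of 2 against 2. Over the other settings their highest adjusted p was 0.0271, for Snrpa1. The difference of Khsrp ranged from 0.59 to 0.69 over the settings, that of Hnrnpd from 0.31 to 0.53 and that of Srsf2 from 0.22 to 0.33.

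Genes of splicing outside these families were listed beside them. Of a list of 194 that held U2AF, LSm, SMN and Gemin, exon junction and helicase genes and regulators of alternative splicing, 142 were measured, of which 37 were called higher in M833 (26.1%, against 10% of all features), 9 lower and 96 did not pass. The median difference was 0.03, and whether this list differed from the 52 genes was not tested. The largest increases were those of Ddx39a, a helicase of splicing and mRNA export, at 0.46 ± 0.06 (adjusted p = 2.39e-05), and of Esrp1, a splicing regulator of epithelial cells, at 0.42 ± 0.14 (adjusted p = 0.0417), which stood at -2.29 in M833 and -2.70 in WT. Fubp1, a relative of Khsrp with KH domains, differed by 0.32 ± 0.04, and Gemin2, of the SMN complex that loads Sm proteins, by 0.31 ± 0.06. The largest decreases were those of Rbmx at -0.39 ± 0.12, Tra2a, an SR-like regulator, at -0.32 ± 0.06, Rbm4 at -0.31 ± 0.04 and the helicase Ddx17 at -0.29 ± 0.09, with adjusted p-values of at most 0.0282.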

How the data were processed

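Total RNA of 8 M833 and 8 WT samples was hybridised with a common reference to 16 two-colour arrays in both dye orientations. The authors deposited 1 log ratio per probe and array, taken as log2 from its range, and used limma for it, per the submitters' processing notes. How background was corrected, how arrays were normalised and what was filtered is not given in the sources used here. Ratios were read as sample over reference, which is likely and nowhere stated, and no sign was turned. Arrays were grouped by the labels, and replicates numbered in accession order only name them. Channel intensities were not used here, so dim probes could not be left out. Array medians lay between -0.02 and 0.07.

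Probes were named from the platform annotation: of 15247 probes 9600 had 1 symbol, 214 several and 5433 none. Of those with 1 symbol, 9492 were matched by Entrez number to RefSeq, which changed 0 symbols. Probes of a gene were averaged, giving 12761 features with 0 missing values. limma 3.58.1 in R 4.3.3 (lmFit, eBayes) fitted cell type and dye to all features, with Benjamini-Hochberg adjusted p-values over all of them and a threshold of 0.05. The fit was tested on simulated data.

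The genes described and all lists were chosen with earlier results of these data known. Array ranges were given for up to 4 called genes with the largest differences in each family, and for Khsrp. Other splicing genes were named for the 4 largest called increases and 4 largest called decreases, and levels for the 4 highest and 4 lowest ratios. Cell cycle genes were named where they did not pass, and other genes are members of the 5 families. Alternatives covered centring, scaling, the dye term, single probes, array weights, robust moderation, single dyes, slide series, extreme values, array sets and each array left out. Motifs were searched with Python 3.11.15.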

Additional observations from a re-analysis of the deposited data

Results flagged for a closer look

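For each of the 52 genes the 8 M833 and the 8 WT arrays were searched for a highest or lowest array whose gap to the nearest other array took up more than Dixon's 95% critical share of the whole range. Of 104 groups 4 had such an array. The critical share stands for about 1 in 20 where 8 values are independent and follow a single normal distribution. Here each group mixed both dyes and the WT arrays fell into sets, so that rate need not hold. Hnrnpa1 stood at 0.91 on WT replicate 1, with the other 7 WT arrays between -0.39 and 0.06. Without that array the difference of Hnrnpa1 was 0.05 (adjusted p = 0.551 in limma). Sf3b6 stood at 1.69 on WT replicate 1, with the others between -0.13 and 0.49. Prpf31 stood at 4.38 on WT replicate 2, the array with all values beyond 8, with the others between 0.26 and 0.36. Prpf4b stood at 0.21 on M833 replicate 5, with the others between -0.09 and 0.05. None of these 4 genes was called with all arrays.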

How the results depend on the processing

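The 52 genes gave 1515 outcomes on the same side of the threshold over the alternatives, 121 calls lost and 28 gained, and 0 called genes changed sign. The count of features called, 3301 with all arrays, was 2000 without the dye term, 835 with the sample in Cy5 only, 1100 in Cy3 only, 1465 with the sets of 4 arrays as a random block, 0 with set means (1675 at an unadjusted p under 0.05), and 1685 and 1858 without M833 replicates 1, 2, 5 and 6 and without M833 replicates 3, 4, 7 and 8. The 21 increases became 13 without the dye term, 8 in Cy5 only, 9 in Cy3 only, 0 with set means and 12 without M833 replicates 3, 4, 7 and 8. By the slide numbers in the array titles, a second series held M833 replicates 6, 7 and 8 only, all with the sample in Cy3. Without these arrays 2206 features were called, and 17 increases. No WT array was on that series, so a shift of the series itself was not tested apart from cell type. The count of decreases, 2 with all arrays, was 1 with centring, no dye term, array weights, the second slide number series left out, or without M833 replicates 3, 4, 7 and 8. It was also 1 with scaling, but there both Prpf6 and Srsf11 were lost and the 1 gene was Hnrnph1, at -0.84. It was 0 in either dye alone, with the block, with set means, without WT replicates 1, 2, 5 and 6, or without M833 replicates 1, 2, 5 and 6. With each array left out in turn, features called ranged from 2878 to 3295, increases from 20 to 22 and decreases from 1 to 2. Hnrnpa0 lost its call without M833 replicate 2 or 8 or WT replicate 3, 4 or 8, where its difference was 0.14 to 0.16, and Snrpb2, Prpf38a and Sf3b4 gained one without M833 replicate 3, WT replicate 2 and WT replicate 8, at 0.11, 0.10 and 0.14. Counts of genes above or below the reference did not change with values beyond 8 set missing. No paired analysis was possible because the labels give no replicate numbers. The small number of arrays, unknown cultures and unmeasured probe brightness limit how finely differences near 0.1 can be read.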
